A study of Homo sapiens with 2 samples.

Results

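The genes described here are 36 members of the antioxidant programme of the transcription factor NRF2 together with the glutathione, thioredoxin and peroxide-removing enzymes of the cell. They were chosen by name and known role, with earlier results of these data known. All probe sets that the platform annotation assigned to 1 of these genes alone were read from the deposited table. That gave 75 probe sets for 35 of the 36 members, of 19775 genes named on the array. AKR1B1 had no probe set named for it alone here and was not analysed here. Of the 35 genes, 33 were measured, meaning that the brightest probe set exceeded the floor (the median signal of the array) in at least 1 array. GPX3, the secreted glutathione peroxidase, was below the floor in both arrays, at 10.3 in the stretched and 11.1 in the non-stretched array. ABCC2, an apical export pump for glutathione conjugates, was below it too, at 2.38 in the stretched and 1.0 in the non-stretched array.

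RNA was compared between a culture of Calu-3 cells under cyclic mechanical stretch for 18 h and a culture left unstretched and labelled with the same 18 h. Calu-3 is a human lung adenocarcinoma cell line with features of airway gland and surface epithelium. The labels give no genetic change for either culture. Both share the protocol of flexible plates coated with collagen type I and medium with 10% serum, and it puts growth at about 80% confluence, whereas the design text calls the cells confluent. The stretched plate was cycled between 0.7% and 20% elongation as a sine wave, 2 s on and 2 s off. Each condition is 1 culture on 1 Affymetrix array, so no difference below has a replicate, an error over cultures or a p-value, and the number of arrays limits the precision.

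NRF2, encoded by NFE2L2, is a transcription factor that the adaptor KEAP1 holds in the cytoplasm and delivers for degradation. Oxidants and electrophiles modify KEAP1, NRF2 then accumulates, and it binds antioxidant response elements with small MAF partners. Its targets make glutathione, reduce thioredoxin, supply NADPH and detoxify quinones and carbonyls. Airway epithelium meets inhaled oxidants directly and uses this programme as a main defence.

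Stretched and non-stretched cells had close to the same signal for most of these genes. Of the 33 measured members, 30 differed by less than 2-fold, 3 were lower under stretch by 2-fold or more, and 0 were higher by that much. Among all 13453 measured genes, 7.49% were lower and 7.78% were higher by 2-fold or more. The 3 lower members were CTH, SOD2 and HMOX1. The median log2 difference (stretched minus non-stretched) was -0.03 over the members, against 0.01 over all measured genes. A difference under 0.5 on the log2 scale in either direction was seen in 27 of 33 members (81.8%), against 59.3% of all measured genes.

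Most members gave strong signals, and strong signals differ less between arrays. In both arrays 27 members had a signal of at least 1000. None of these 27 differed 2-fold, and among all 3269 genes with such signals 2.05% were higher and 1.65% lower by that much. The level was required in both arrays, so it left out CTH, SOD2 and CBS, which passed 1000 in the non-stretched array only. The lack of 2-fold differences among the 27 thus partly follows from how they were picked. Of the 27 members, 25 lay within 0.5 on the log2 scale (92.6%), against 76.5% of the genes with such signals. The bright level was chosen after the values were seen.

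**Figure D1:**
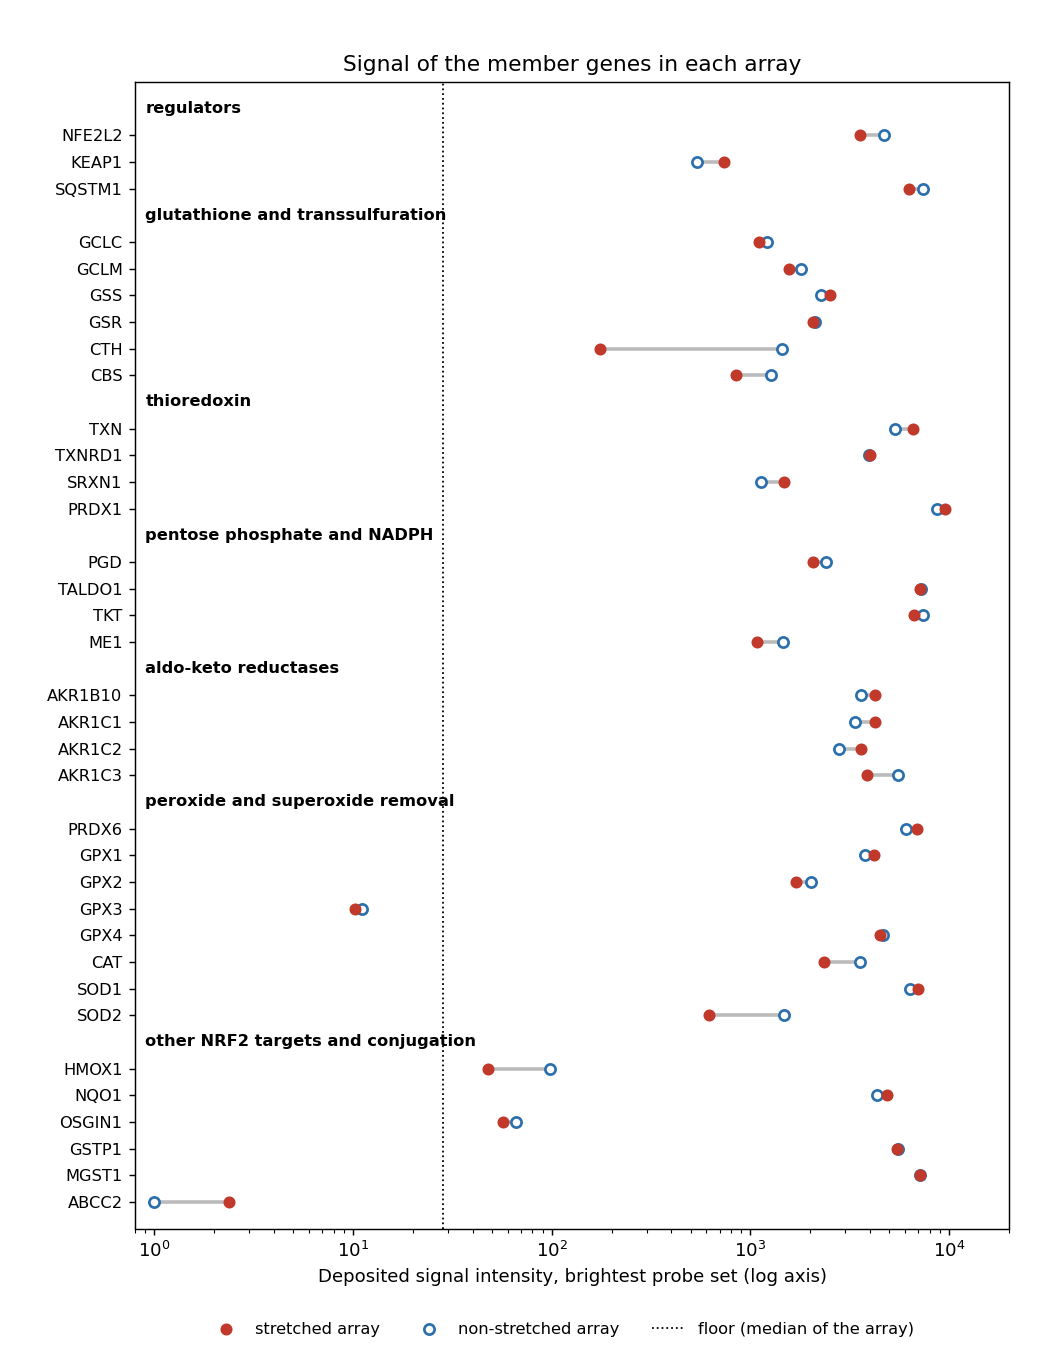
Deposited signal of the brightest probe set of each of the 35 named members (log axis) in the stretched array (filled red) and the non-stretched array (open blue), grouped by role, with the floor dotted. The paired points of the measured members lie close together except for CTH (176 in the stretched and 1449 in the non-stretched array), SOD2 (618 and 1475) and HMOX1 (47.7 and 97.5). GPX3 and ABCC2 lie below the floor and were not measured.

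Facts of the arrays that touch every value are few. The 2 arrays differed by -0.02 in the log2 of their medians and by 0.11 at the 75th percentile, and 18 hybridisation spike-in probe sets had a median log2 difference of -0.11. Differences of about 0.11 therefore depend on the scaling. The controls ACTB and GAPDH were at 0.08 and 0.11. The SD of a single probe set's log2 difference was 0.36, estimated from 5818 genes with at least 2 probe sets above the floor, and 0.22 for the 2595 genes with brighter probe sets (beyond the 75th percentile of the array). This SD measures the probes, not cultures. All 10 epithelial markers were above the floor in both arrays. Summed over the listed markers, signals were 50465 in the stretched and 56257 in the non-stretched array for epithelium, 250 and 301 for fibroblasts and smooth muscle, and 97.1 and 116 for endothelium. Leukocyte markers summed to 1626 in the stretched and 1417 in the non-stretched array, of which lysozyme (LYZ), also a product of airway glands, gave 1462 and 1220. The pan-leukocyte marker PTPRC was below the floor in both. Of the epithelial markers, CFTR, MUC1 and ELF3 were lower under stretch by 2-fold or more, and the part of this in the values of the antioxidant genes was not tested.

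The regulators of the pathway differed by less than 2-fold and in different directions. NFE2L2, the gene of NRF2 itself, had a signal of 3551 in the stretched and 4712 in the non-stretched array, a log2 difference of -0.41 in its brightest probe set. Its other measured probe set was at 0.33, so the probe sets did not share a direction. KEAP1, the inhibitor, had 739 in the stretched and 542 in the non-stretched array (0.45 on the log2 scale) and only 1 probe set. SQSTM1 (p62), an autophagy receptor that binds KEAP1 and is itself an NRF2 target, had 6317 in the stretched and 7379 in the non-stretched array (-0.22). The 5 SQSTM1 probe sets ranged from -0.60 to 0.77, the widest spread among the members.

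Promoter windows from RefSeq (build GRCh38.p14, from 250 bases before to 50 after an annotated start) were found for 29 of the 36 members, 45 windows in all. The letters TGACNNNGC, the core of the antioxidant response element, were searched on both strands. They were present in 10 of the 45 windows (22.2%) and in 13.3% of all 35116 windows in the table. By gene, 9 of 29 members (31%) had a match in at least 1 window, against 16.1% of all 27305 genes in the table. A gene with more windows has more chances of a match, and the shares by gene were not adjusted for the number of windows. The 9 members were PGD, GCLM, ME1, GSTP1, MGST1, TXNRD1, GPX2, KEAP1 and CBS. No window was found for GSS, GSR, PRDX1, AKR1B10, PRDX6, SOD1 and HMOX1, so these were not searched. The letters TTGCATCA, a core of the amino acid response element bound by ATF4, were in none of the 45 windows and in 0.866% of all windows. A match is only a run of letters, and the lack of one says only that these letters are not in the window.

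The windows below set CTH, the member with the largest difference, beside 4 members that hold the antioxidant core and differed by less than 2-fold. Capitals mark the core, and each sequence runs 5′ to 3′ along the gene. CTH lies at chr1:70411018-70411317 (plus strand) and holds neither core. GCLM at chr1:93909381-93909680 (minus strand) and KEAP1 at chr19:10502722-10503021 (minus strand, 1 of its 2 windows) share the run GCTTAGTCA, the core read on the opposite strand. GSTP1 at chr11:67583562-67583861 (plus strand) and ME1 at chr6:83431002-83431301 (minus strand) share TGACTCAGC, which also holds the AP-1 letters TGACTCA.
CTH: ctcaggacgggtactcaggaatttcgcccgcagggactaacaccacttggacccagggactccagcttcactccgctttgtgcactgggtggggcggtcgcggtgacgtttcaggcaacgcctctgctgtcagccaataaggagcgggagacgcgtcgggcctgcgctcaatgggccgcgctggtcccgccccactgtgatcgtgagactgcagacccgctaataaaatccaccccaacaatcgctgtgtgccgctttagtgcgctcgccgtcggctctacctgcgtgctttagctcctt
GCLM: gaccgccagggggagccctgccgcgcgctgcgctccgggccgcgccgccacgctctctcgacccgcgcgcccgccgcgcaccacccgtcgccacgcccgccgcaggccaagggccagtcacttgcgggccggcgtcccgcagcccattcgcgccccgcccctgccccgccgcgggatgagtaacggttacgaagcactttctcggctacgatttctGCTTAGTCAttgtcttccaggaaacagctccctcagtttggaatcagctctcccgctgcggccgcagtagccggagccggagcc
KEAP1: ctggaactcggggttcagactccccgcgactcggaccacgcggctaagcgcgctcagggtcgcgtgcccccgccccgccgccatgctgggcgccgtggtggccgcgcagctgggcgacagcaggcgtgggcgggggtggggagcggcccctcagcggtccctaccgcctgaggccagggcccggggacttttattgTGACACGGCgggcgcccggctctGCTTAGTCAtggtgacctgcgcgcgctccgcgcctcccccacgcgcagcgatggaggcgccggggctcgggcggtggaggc
GSTP1: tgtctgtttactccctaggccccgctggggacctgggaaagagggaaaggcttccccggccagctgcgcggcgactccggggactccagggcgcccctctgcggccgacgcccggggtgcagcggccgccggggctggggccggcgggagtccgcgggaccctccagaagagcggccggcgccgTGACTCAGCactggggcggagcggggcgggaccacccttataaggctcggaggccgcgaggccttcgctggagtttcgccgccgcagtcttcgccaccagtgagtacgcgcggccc
ME1: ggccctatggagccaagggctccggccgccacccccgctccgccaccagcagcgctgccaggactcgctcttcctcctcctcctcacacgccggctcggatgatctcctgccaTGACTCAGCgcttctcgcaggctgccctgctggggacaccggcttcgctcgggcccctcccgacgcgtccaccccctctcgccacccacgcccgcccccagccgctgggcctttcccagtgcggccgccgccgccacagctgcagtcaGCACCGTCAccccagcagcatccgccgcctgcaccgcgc
The match in GCLM starts 34 bases before the annotated start and that in GSTP1 66 bases before it. In KEAP1 the matches start 54 and 31 bases before it. In ME1 one match starts 137 bases before the start and the other at position 12 after it. The log2 differences of these genes were -3.04 for CTH, -0.19 for GCLM, 0.45 for KEAP1, -0.02 for GSTP1 and -0.42 for ME1.

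Of the 6 genes of glutathione synthesis and transsulfuration, CTH was lower by 2-fold or more and the other 5 differed by less than 2-fold. CTH, cystathionine gamma-lyase, which releases cysteine in the last step of transsulfuration, had 176 in the stretched and 1449 in the non-stretched array. Its second probe set had 97.8 in the stretched and 869 in the non-stretched array. The 2 probe sets gave log2 differences of -3.04 and -3.15, so CTH was 8.24-fold lower by its brightest probe set. This was the largest difference among the members. CBS, cystathionine beta-synthase, which precedes CTH in the same route, had 850 in the stretched and 1264 in the non-stretched array. Its log2 differences were -0.57 and -0.36, both below 0 and both under 2-fold.

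The enzymes that make and recycle glutathione downstream of cysteine each differed by less than 2-fold. GCLC, the catalytic subunit of glutamate-cysteine ligase and the rate-limiting step of glutathione synthesis, had 1100 in the stretched and 1207 in the non-stretched array (-0.13, with -0.49 in its other measured probe set). GCLM, the modifier subunit, had 1564 in the stretched and 1789 in the non-stretched array (-0.19, with 0.11 in its other probe set). GSS, glutathione synthetase, had 2532 in the stretched and 2281 in the non-stretched array, and its 2 probe sets were at 0.15 and 0.08. GSR, glutathione reductase, had 2073 in the stretched and 2112 in the non-stretched array, with probe sets at -0.03 and -0.11. The median of these 4 genes was -0.08, within the uncertainty of the scaling.

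Thioredoxin genes were slightly above 0, each by less than 2-fold. TXN, the small dithiol protein that reduces peroxiredoxins and ribonucleotide reductase, had 6613 in the stretched and 5317 in the non-stretched array (0.31, with 0.08 in a dimmer probe set). SRXN1, sulfiredoxin, which repairs overoxidised peroxiredoxins and is a sensitive NRF2 target, had 1483 in the stretched and 1131 in the non-stretched array (0.39). PRDX1, a cytosolic peroxiredoxin, had 9510 in the stretched and 8732 in the non-stretched array (0.12). TXNRD1, the selenoenzyme that reduces thioredoxin with NADPH, had 4003 in the stretched and 3944 in the non-stretched array (0.02). The median of the 4 genes was 0.22. Centring on the 75th percentile gave 0.11, where TXNRD1 turned to -0.086, and centring the spike-ins at 0 gave 0.33.

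The pentose phosphate genes and malic enzyme, which supply NADPH or recycle its sugar intermediates, lay at or slightly below 0. PGD, phosphogluconate dehydrogenase, had 2057 in the stretched and 2390 in the non-stretched array (-0.22). TALDO1, transaldolase, had 7172 in the stretched and 7192 in the non-stretched array, a log2 difference of -0.0041. TKT, transketolase, had 6668 in the stretched and 7388 in the non-stretched array, with 3 probe sets between -0.15 and -0.02. ME1, cytosolic malic enzyme, had 1086 in the stretched and 1452 in the non-stretched array (-0.42), and its other probe sets were at -0.05 and, with the stretched value at the floor, -0.15. The median of the 4 genes was -0.18, and it was -0.07 with the spike-ins centred at 0, where TALDO1 turned above 0.

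Aldo-keto reductases, which reduce carbonyls formed by lipid peroxidation and are among the strongest NRF2 targets of human epithelium, differed in sign within the family. AKR1C1 had 4252 in the stretched and 3350 in the non-stretched array (0.34), and AKR1C2 had 3603 in the stretched and 2793 in the non-stretched array (0.37). AKR1B10 had 4220 in the stretched and 3624 in the non-stretched array (0.22). AKR1C3, which also makes steroid and prostaglandin products, had 3882 in the stretched and 5512 in the non-stretched array (-0.51). The signs of these brightest probe sets held under each of the scalings tried, with medians of the 4 genes from 0.17 to 0.40, and all differences were under 2-fold. The bright AKR1C1 and AKR1C2 probe sets end in _x_at, a class that can bind transcripts of near-identical relatives, so AKR1C1 and AKR1C2 cannot be told apart by them. The AKR1C3 probe set does not carry that ending. A dim AKR1C1 probe set without it (56.5 in the stretched and 32.5 in the non-stretched array) was at 0.80, and another dim one, with the stretched value at the floor, was at -0.083. The second bright AKR1C1 probe set was at 0.24 and the second bright AKR1C2 probe set was at 0.083.

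**Figure D2:**
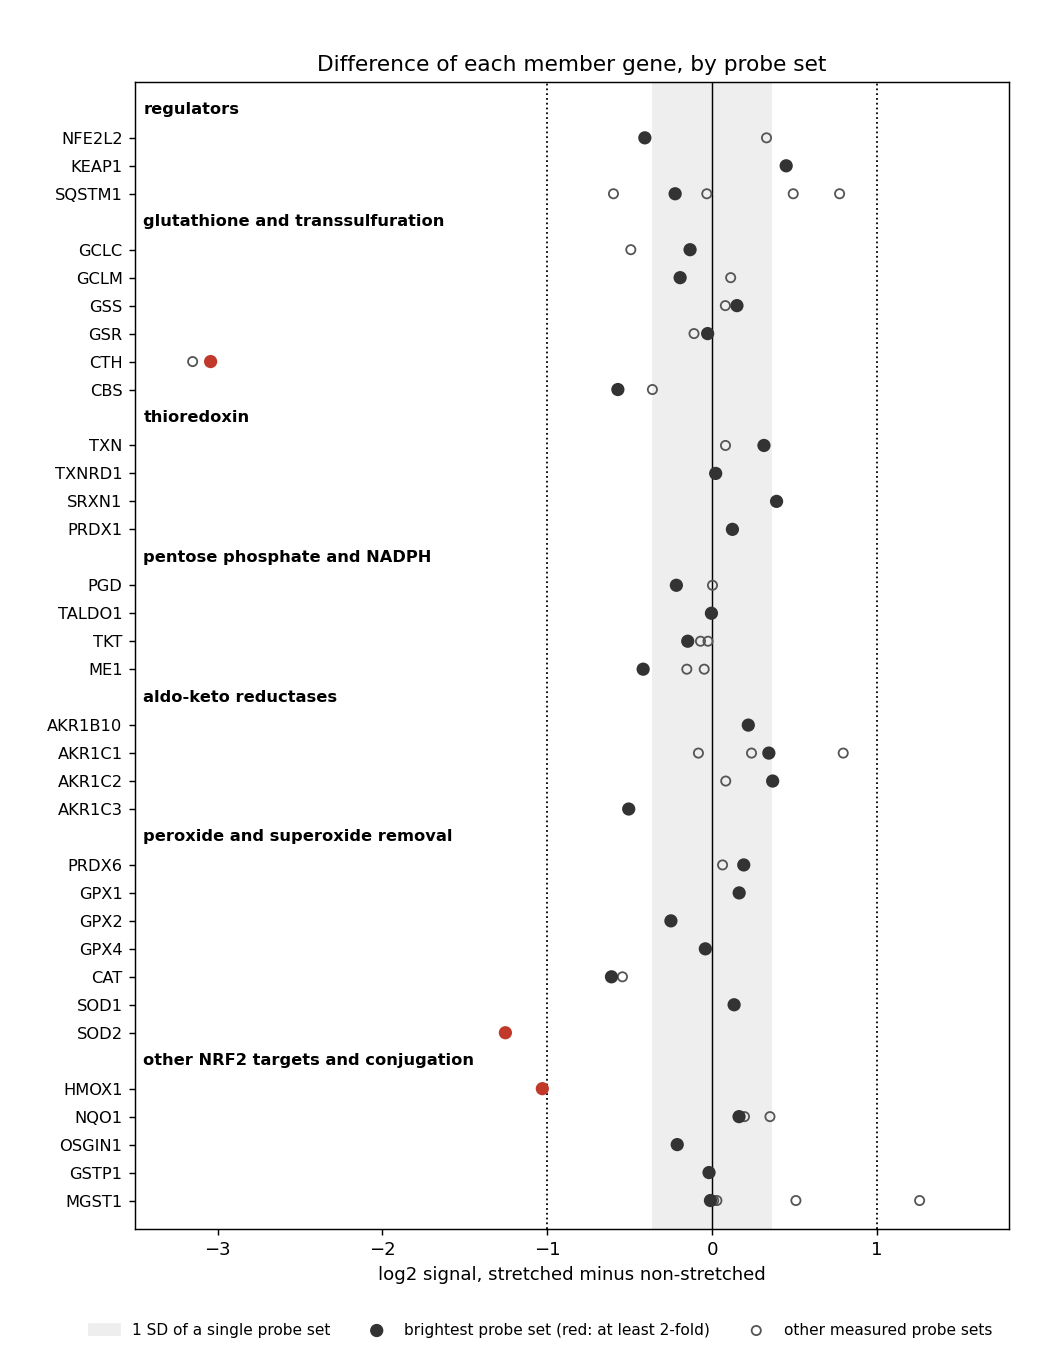
log2 difference (stretched minus non-stretched) of each of the 33 measured members by probe set, grouped by role. Filled points are the brightest probe set of a gene (red where at least 2-fold), open points its other measured probe sets, the grey band 1 SD of a single probe set (0.36) and the dotted lines 2-fold. CTH stands at -3.04 with its other probe set at -3.15, and most other filled points lie within or near the band.

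Of the genes that remove peroxide and superoxide, SOD2 was at least 2-fold lower and CAT was lower by a smaller amount. SOD2, the mitochondrial manganese superoxide dismutase and a well-known NF-kB target, had 618 in the stretched and 1475 in the non-stretched array, 2.39-fold lower (-1.25). This rests on 1 probe set, and 4 more that list SOD2 together with another gene were not used. SOD1, the cytosolic copper-zinc enzyme, had 6967 in the stretched and 6351 in the non-stretched array (0.13). CAT, the peroxisomal catalase, had 2345 in the stretched and 3581 in the non-stretched array (-0.61), and its other measured probe set had 620 in the stretched and 904 in the non-stretched array (-0.54). CAT was the 1 further member that reached 1.5-fold, a size chosen after the values were seen. At that size 4 members were lower and 0 higher, where 16.7% of all measured genes were lower and 17.9% higher.

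The measured peroxidases each differed by less than 2-fold. GPX1, the main cytosolic glutathione peroxidase, had 4213 in the stretched and 3759 in the non-stretched array (0.16). GPX2, the epithelial form and an NRF2 target, had 1692 in the stretched and 2013 in the non-stretched array (-0.25). GPX4, which reduces lipid hydroperoxides in membranes and so opposes ferroptosis, had 4515 in the stretched and 4645 in the non-stretched array (-0.04). PRDX6, which unlike other peroxiredoxins uses glutathione, had 6938 in the stretched and 6073 in the non-stretched array, with probe sets at 0.19 and 0.06. Over the 7 measured genes of the group the median was -0.04. It was -0.25 over the 5 genes left once the _x_at and _s_at classes were dropped.

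Among the other NRF2 targets, HMOX1 passed 2-fold by a small margin at a low signal. HMOX1, heme oxygenase, which degrades heme and is induced by many stresses, had 47.7 in the stretched and 97.5 in the non-stretched array, 2.04-fold lower (-1.03). It has 1 probe set, and these signals lie not far above the floors of 28.4 in the stretched and 28.7 in the non-stretched array. HMOX1 was at -0.92 with the spike-ins centred at 0 and at -0.83 on the log2(value + 16) scale, both short of 2-fold. OSGIN1, a target that is usually low without stress, had 56.8 in the stretched and 65.8 in the non-stretched array (-0.21). NQO1, the quinone reductase most used as a readout of NRF2, had 4876 in the stretched and 4354 in the non-stretched array, and its 3 probe sets were at 0.16, 0.20 and 0.35. GSTP1, the main glutathione transferase of lung epithelium, had 5452 in the stretched and 5523 in the non-stretched array (-0.02). MGST1, a microsomal glutathione transferase, had 7131 in the stretched and 7180 in the non-stretched array, with its 3 bright probe sets between -0.01 and 0.03. Of its dim probe sets, one had 153 in the stretched and 64.1 in the non-stretched array (1.26) and the other was at 0.51.

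Where several probe sets were measured, most members spanned a narrow range. Of 18 members with at least 2 measured probe sets, 14 spanned less than 0.5 on the log2 scale, and 12 had all probe sets on one side of 0. The same counts over all genes were not made, so these show nothing particular to the members. The 4 wider spans were those of SQSTM1 (1.37), MGST1 (1.27), AKR1C1 (0.88) and NFE2L2 (0.74). Another 15 members rest on 1 measured probe set. Probe sets of a gene share the RNA and the array, so they check the probe and not the culture.

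**Figure D3:**
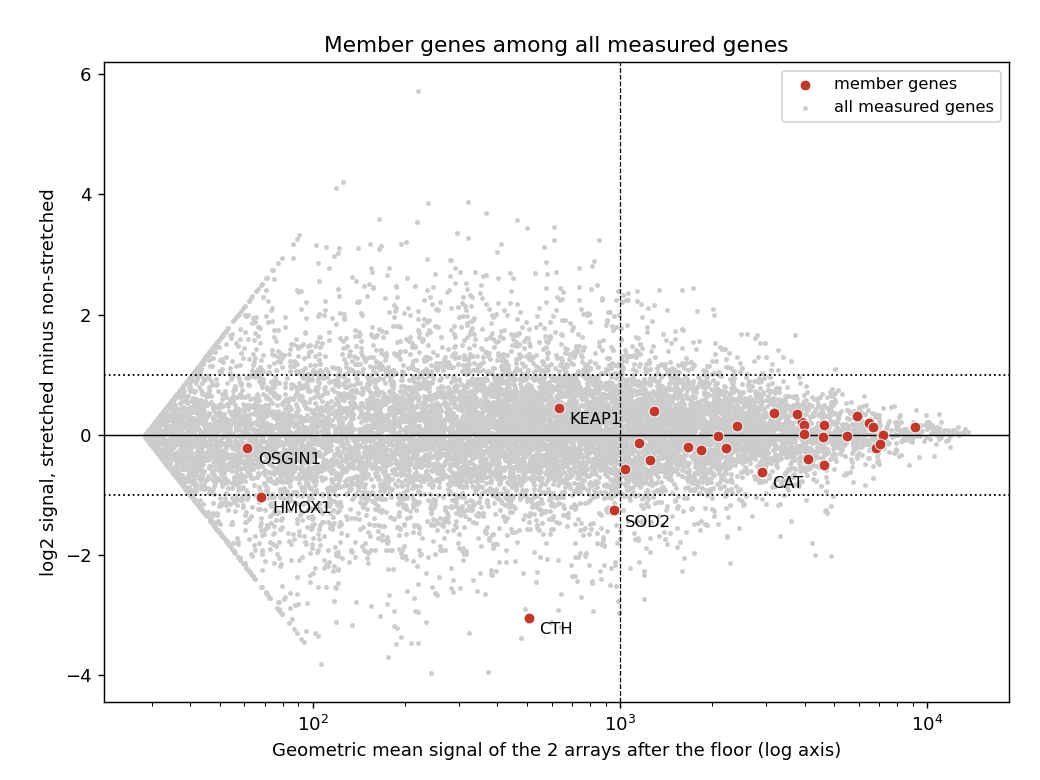
log2 difference (stretched minus non-stretched) against geometric mean signal (log axis) for the 33 measured members (red) and all 13453 measured genes (grey), with 2-fold dotted and a signal of 1000 dashed. The grey cloud narrows to the right, where most members lie close to 0, and CTH, SOD2 and HMOX1 lie to the left of the dashed line below the lower dotted one.

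Other genes of the same pathways included differences in both directions. They were 116 in a list drawn up by role, with earlier results of these data known. Of 101 measured, 7 were higher and 10 lower by 2-fold or more, 6.93% and 9.90%, near the 7.78% and 7.49% of all measured genes. Their split turned with the scaling, with 11 higher and 5 lower when spike-ins were centred at 0 and 4 higher and 12 lower when the arrays were centred on the 75th percentile. The median log2 difference was -0.02, and 63 of 101 (62.4%) lay within 0.5 on the log2 scale, close to the 59.3% of all measured genes.

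The genes that import cystine and degrade glutathione included the widest differences in both directions. Of the 10 measured, 1 was higher (CHAC2) and 1 lower (CHAC1) by 2-fold or more, where 7.78% and 7.49% of all measured genes were. CHAC2, a cytosolic enzyme that slowly cleaves glutathione, had 1336 in the stretched and 246.9 in the non-stretched array, 5.41-fold higher, in 1 probe set. Its relative CHAC1, the fast stress-induced form, had 5.0 in the stretched array, below the floor, and 248 in the non-stretched array. CHAC1 was at least 8.74-fold lower and is named outside the rule after its value was seen. SLC7A11, the cystine-glutamate exchanger that brings in cystine, had 3320 in the stretched and 2638 in the non-stretched array, with 3 probe sets from 0.12 to 0.52. Its partner SLC3A2, likewise named afterwards, had 2847 in the stretched and 5128 in the non-stretched array (-0.85). GGCT, also of this list and named afterwards, had 4290 in the stretched and 2182 in the non-stretched array. Its log2 difference was 0.98, and 1.09 with the spike-ins centred at 0.

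Of 14 measured genes listed with the other thioredoxins, peroxiredoxins and glutaredoxins, 1 (TXNIP) was higher by 2-fold or more. GLRX and MSRB2 were lower by that much. Among all measured genes 7.78% were higher and 7.49% lower. GLRX, cytosolic glutaredoxin, which removes glutathione from proteins, had 688 in the stretched and 1860 in the non-stretched array, with probe sets at -1.43 and -1.34. MSRB2, a mitochondrial methionine sulfoxide reductase, had 1034 in the stretched and 2207 in the non-stretched array (-1.09), and its 3 probe sets ranged from -1.51 to -0.86, the smallest in size with the stretched value at the floor. MSRB2 was at -0.98 in its brightest probe set with the spike-ins centred at 0. TXNIP, the inhibitor of thioredoxin, had 125 in the stretched and 36.4 in the non-stretched array (1.78), with its other measured probe set at 0.36 and the non-stretched signal near the floor. Among 11 measured genes listed with the other NADPH sources, 1 was higher and 0 were lower by 2-fold or more in the brightest probe set. The higher one was RPIA, ribose-5-phosphate isomerase of the non-oxidative pentose phosphate branch, with 1086 in the stretched and 430 in the non-stretched array (1.34). IDH1, cytosolic isocitrate dehydrogenase, had 3595 in the stretched and 6211 in the non-stretched array (-0.79). Its second bright probe set passed 2-fold, at -1.12. A dim one, with the non-stretched value at the floor, was at 0.06. IDH1 is named outside the rule after its value was seen.

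Of 18 measured genes listed as other glutathione peroxidases, transferases and exporters, 4 were lower and 1 was higher by 2-fold or more. Among all measured genes 7.49% were lower and 7.78% higher by that much. The lower ones were GPX8, GSTM4, GSTM1 and GSTM2, while GSTM3, another glutathione transferase of the mu class, was under 2-fold. The higher one was GSTT2 (1.04), named after its value was seen. It had 59.2 in the stretched and 26.4, below the floor, in the non-stretched array. GPX8, a peroxidase of the endoplasmic reticulum membrane, had 463 in the stretched and 2002 in the non-stretched array, 4.32-fold lower, and both of its probe sets were at -2.11. GSTM4 had 46.7 in the stretched and 135 in the non-stretched array (-1.53, with -0.91 in its other probe set). GSTM1 had 280 in the stretched and 611 in the non-stretched array (-1.13, with -0.89 in its other probe set). GSTM2 had 170 in the stretched and 362 in the non-stretched array (-1.09). The brightest probe sets of all 3 end in _x_at, so these close relatives cannot be told apart by them and the 3 calls may not be separate. The other GSTM4 probe set ends in _s_at. GSTM2 was short of 2-fold with the spike-ins centred at 0 (-0.97) and under a floor at the 75th percentile (-0.54). GSTM3 had 3373 in the stretched and 2869 in the non-stretched array, with probe sets at 0.23 and 0.52.

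Of the 15 measured iron, heme and quinone genes, 2 were higher and 1 was lower by 2-fold or more, and of the 12 measured NRF2 partners 0 were higher and 1 was lower. Among all measured genes 7.78% were higher and 7.49% lower by that much. The 2 higher ones were HMOX2 and ALDH3A2, a fatty aldehyde dehydrogenase (1.04), and the lower ones were CYP4F11, a cytochrome P450 (-1.07, with the stretched value at the floor), and NFE2L1. ALDH3A2 and CYP4F11 passed 2-fold by less than 0.11 on the log2 scale, so these 2 calls depend on the scaling. FTL, the ferritin light chain and an NRF2 target, had 10903 in the stretched and 10628 in the non-stretched array (0.04), and FTH1 was not analysed here. HMOX2, the constitutive heme oxygenase, had 3391 in the stretched and 1564 in the non-stretched array, with probe sets at 1.12 and 1.05, opposite in sign to HMOX1. NFE2L1, the related factor that drives proteasome genes, had 3475 in the stretched and 6998 in the non-stretched array (-1.01, 3 probe sets from -1.25 to -0.98), and is named outside the rule after its value was seen. NFE2L1 was short of 2-fold with the arrays centred on their medians (-0.99) or on the spike-ins (-0.90). The small MAF gene MAFG was at -0.01 and the NRF2 competitor BACH1 at -0.28. MAFG, BACH1, GSTM3, ALDH3A2 and CYP4F11 are outside the rule as well.

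**Figure D4:**
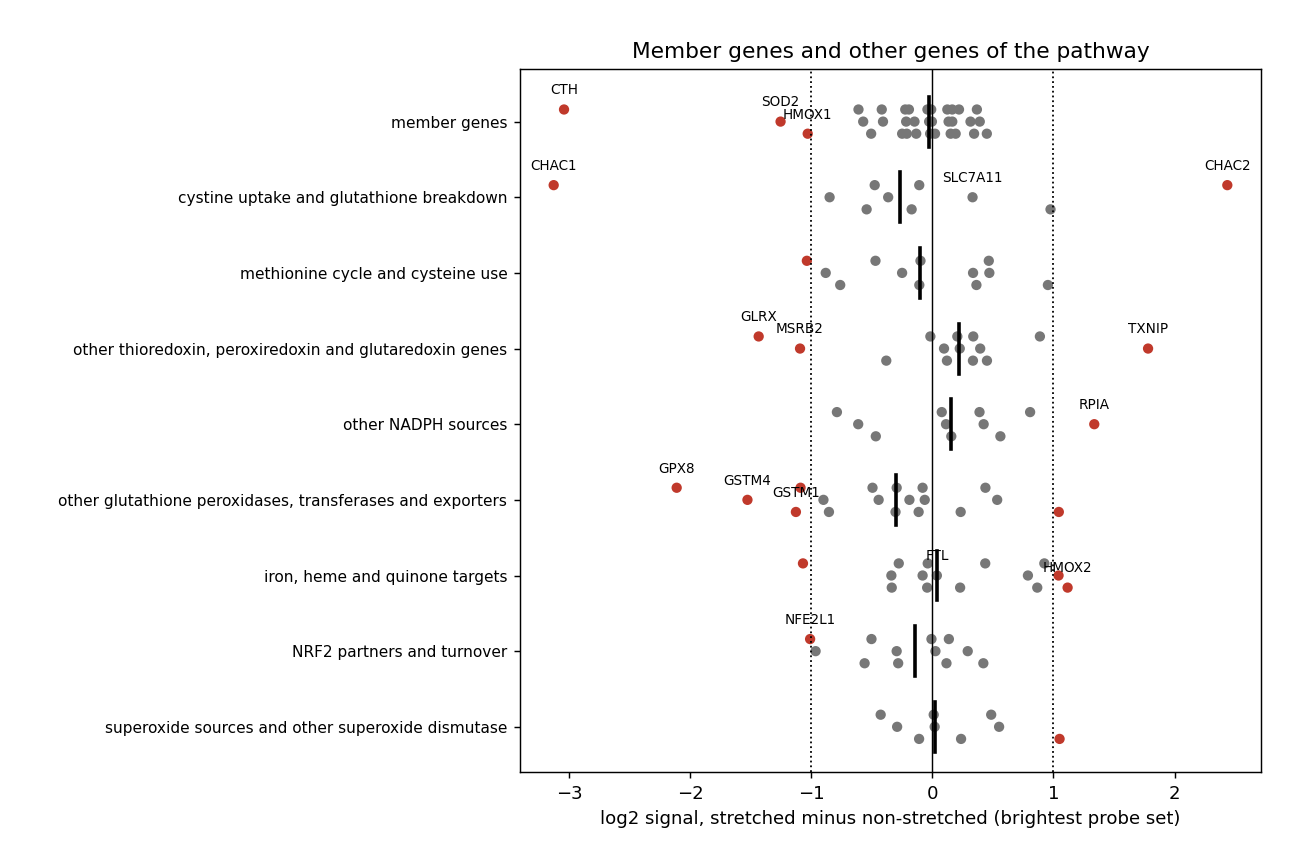
log2 difference (stretched minus non-stretched) of the brightest probe set of each of the 33 measured members (top row) and the 101 other measured genes of the pathway by role, 1 point a gene, red where at least 2-fold, with a bar at the median of each row and 2-fold dotted. Most members crowd around the median of -0.03, and the other rows hold points on both sides, with CHAC1 at -3.13 (a lower bound) and CHAC2 at 2.44 farthest out.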

How the data were processed

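The authors deposited linear signal intensities, 1 value for each of 54675 probe sets (62 controls) on each array. Their summarisation and scaling was not given in the sources used here. Per the labels, biotin-labelled cRNA was prepared from 6 µg of total RNA. The platform annotation, with symbols updated through RefSeq (GRCh38.p14, names only), gave 1 gene for 41091 probe sets, several for 1801 and none for 11721. The last 2 classes were not used.

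Intensities were taken as deposited. Each array was floored at its 50th percentile, and log2 differences (stretched minus non-stretched) were computed with Python 3.11.15 and pandas 2.3.3. Folds against a value at the floor are lower bounds. The brightest probe set (mean of both log2 signals) stood for a gene. With 1 array per group no test was made, and 2-fold differences were counted beside those of all measured genes. Steps were tested on simulated data. Members and lists were chosen with earlier results of these data known. All members were described. Of the wider list, up to 10 genes at least 2-fold different and above the floor in both arrays were named by size, with SLC7A11, TXNIP, FTL and FTH1, and 1 further gene of the rule is not reported here. No value column was left out. Alternatives were another floor or none, other scalings (75th percentile, median, spike-ins, loess with statsmodels 0.14.6), probe sets averaged, the _x_at and _s_at classes dropped, and a pseudocount of 16.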

Additional observations from a re-analysis of the deposited data

How the results depend on the processing

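CTH and SOD2 were at least 2-fold lower under the 10 other processings compared, CTH from -3.15 to -2.54 and SOD2 from -1.36 to -1.14 on the log2 scale. The CTH value of -2.54 has the stretched signal at the 75th percentile floor and is a lower bound in size. SOD2 has 1 probe set in use, so other floors, averaging and dropping classes left it at -1.25. None of these processings took in the 4 SOD2 probe sets that were not used. HMOX1 was not measured under a 75th percentile floor and was short of 2-fold with spike-ins centred at 0 and with the pseudocount. The count of lower members was therefore 2 or 3 in these. The count of higher members was 0 in all but one. With the _x_at and _s_at classes dropped it was 1, MGST1 at 1.26, because its bright probe sets were left out. Of 322 member values recomputed, 313 moved by less than 1 SD of a probe set (0.36). That count was partly fixed in advance. Centring on the median, the 75th percentile or the spike-ins shifts all values alike, by less than that SD. Averaging probe sets cannot change the 15 members with 1 measured probe set. The median of all members was -0.13 after centring on the 75th percentile and 0.087 with spike-ins centred at 0, and the median of all genes moved to -0.10 and 0.12. The regulators' median was 0.082 with probe sets averaged and 0.45 with those classes dropped. That of peroxide and superoxide genes was -0.25 with them dropped. The median of the wider list was 0.019 under a 75th percentile floor, -0.12 centred on that percentile, 0.097 with spike-ins centred at 0, -0.086 with the loess trend removed, 0.025 with probe sets averaged and 0.077 with the _x_at and _s_at classes dropped. Higher genes of the wider list numbered 4 under a 75th percentile floor, 4 centred on that percentile, 11 with spike-ins centred at 0 and 14 at 1.5-fold. Lower ones numbered 5 with that floor, 5 with spike-ins centred at 0, 6 with the _x_at and _s_at classes dropped and 18 at 1.5-fold. The 1.5-fold size was chosen after seeing the data. CHAC1 turned to 0.0069 under a 75th percentile floor, where its non-stretched signal of 248 lies next to the stretched floor of 249. Where no cause is given, the cause was not tested. No paired analysis was possible because each condition has 1 array, and no array could be left out. Low signals limit HMOX1, OSGIN1 and GSTM4.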

Other observations

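Other branches around the pathway were described by the same list. Of 12 measured genes of the methionine cycle and cysteine use, 0 were at least 2-fold higher and 1 was at least 2-fold lower, with a median log2 difference of -0.10. Among all measured genes 7.78% were higher and 7.49% lower by that much. The lower one was SUOX, sulfite oxidase, with 139 in the stretched and 286 in the non-stretched array (-1.04, and -0.66 in its other probe set). SUOX was short of 2-fold with the spike-ins centred at 0 (-0.92), with probe sets averaged (-0.85) and with the pseudocount (-0.96). Under a floor at the 75th percentile it was at -0.20. MTRR, which reactivates methionine synthase, had 1179 in the stretched and 608 in the non-stretched array (0.95), and GOT1, an aminotransferase that also acts on cysteine sulfinate, had 563 in the stretched and 1037 in the non-stretched array (-0.88). AHCY, which clears S-adenosylhomocysteine, was at 0.36. SUOX, MTRR, GOT1 and AHCY were named after their values were seen.

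Of the 9 measured genes listed as sources of superoxide or as a further superoxide dismutase, 1 (XDH) was higher by 2-fold or more and 0 were lower, where 7.78% and 7.49% of all measured genes were. DUOX1 and DUOX2, the hydrogen peroxide generators of airway epithelium, were below the floor in both arrays. CYBA, the shared oxidase subunit p22phox, had 6709 in the stretched and 6659 in the non-stretched array (0.01). XDH, xanthine dehydrogenase, had 161 in the stretched and 77.9 in the non-stretched array (1.05), but its other probe set was at -0.49, and the mean of its probe sets was at 0.28. SOD3, the extracellular superoxide dismutase, had 541 in the stretched and 387 in the non-stretched array (0.49). These genes, too, were named after their values were seen.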
